A study of Homo sapiens with 12 samples.

Results

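Immediate-early genes and feedback genes of the mitogen-activated protein kinase (MAPK) pathway were described as 1 group of 39 members among the 60675 genes listed for every library. The members were named by gene family, with earlier results of these data known: 7 subunits of the AP-1 transcription factor, 3 EGR genes, 3 NR4A orphan nuclear receptors, 4 KLF genes, 6 IER and RNA decay or stress genes, 7 MAPK phosphatases of the DUSP family, 5 Sprouty and SPRED genes, and 4 ETS or late output genes including CCND1. RNA sequencing had been performed on prostate cancer cells labelled LNCaP or LNCaP:C42 (C4-2 below), the first androgen dependent and the second castrate resistant, to ask how the lysine demethylases KDM1A and KDM7A act on androgen-regulated transcription. All 6 groups received the synthetic androgen R1881 at 1 nM for 72 h in medium with charcoal-stripped serum. In C4-2 the groups were R1881 alone, R1881 with the KDM1A inhibitor namoline (50 µM), R1881 with the KDM7A inhibitor TCE-5002 (100 µM in the series description, a lower dose in the methods of the study), and R1881 with both. In the cells labelled LNCaP they were R1881 alone and R1881 with both inhibitors. Each group held 2 libraries, which the methods of the study call biological replicates without saying how the cultures were separated, and every p-value below measures the spread between such libraries. The treatment text of the sample labels describes siRNA depletion, which is not what the titles of these 12 libraries name. Each label stands for a single cultured line, and C4-2 is known as a derivative of LNCaP.

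Growth factor signals pass through RAS, RAF, MEK and ERK, and related stress signals pass through JNK and p38, to transcription factors that switch on immediate-early genes within minutes and without new protein synthesis. The products of these genes are mostly transcription factors (FOS, JUN, EGR1), which set off a later wave, and inhibitors, which end the signal: DUSP phosphatases remove phosphate from ERK, JNK and p38, and Sprouty and SPRED proteins act on RAS and RAF. Their messenger RNAs are short lived, and in prostate cancer the MAPK pathway has been linked to growth with little androgen.

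Total counts ranged from 14791602 to 20690819 per library, and levels are given as CPM, counts scaled to a library of 1000000 with TMM factors over the 12 libraries. A gene was called changed at a Benjamini-Hochberg adjusted p under 0.05 and a change of at least 2-fold in edgeR's quasi-likelihood test, fitted over every gene tested. Errors on log2 fold changes are standard errors. For 1 library, replicate 1 of the cells labelled LNCaP with both inhibitors, the header of the count file names namoline alone while the title names both, and the counts that rest on it, with the values that moved most, are given with and without it. A fit without it leaves 1 library in that group, which is then assumed to vary like the others. With R1881 alone 9 of the 10 luminal markers were lower in the libraries labelled LNCaP than in C4-2, though all 10 were above 1 CPM and KLK3 was higher (380.4 ± 33.4 against 215 ± 13.4 CPM). EPCAM was at 3.80 ± 0.391 CPM and CDH1 at 42.5 ± 3.96 CPM (SD, n = 2) in the former, against 137.5 ± 1.46 and 969 ± 30.2 CPM in C4-2, while VIM was at 693.5 ± 59.3 against 2.43 ± 0.269 CPM. Of the 7 mesenchymal markers, CDH2 (50.1 ± 2.97 against 0 CPM) and ZEB1 (42.2 ± 1.97 against 0.423 ± 0.327 CPM) went the same way as VIM. FN1 did so by less (39.6 ± 0.951 against 27.3 ± 0.599 CPM). COL1A1 went the other way (4.50 ± 0.672 against 49.7 ± 0.409 CPM), and COL1A2 and DCN were at or below 0.0702 CPM in either. The libraries labelled LNCaP are called by their label here. Replicates of a group differed from each other along transcript GC content. Spearman's rho across 10402 genes ran from -0.785 for TCE-5002 to 0.622 for the libraries labelled LNCaP with both. The 34 members tested in C4-2 had a median GC of 56.6% against 49.8% for the genes tested. Values after a GC correction therefore stand beside the member calls against R1881 alone, in the interaction and between the labels that it ends. Calls that it adds are not named, and pathway genes outside the members are given without it. In bulk RNA fewer expressing cells and less RNA per cell cannot be told apart.

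Promoter sequence was read for every member with an entry, tested or not. Of the 39 members 29 matched an entry in RefSeq (GRCh38.p14), with 38 promoters among them, and the 250 bases before each start were searched on both strands. The cAMP response element TGACGTCA, the site of CREB and ATF factors, was held by 4 of the 38 member promoters (DUSP1, DUSP8, JUND and ZFP36L1) and by 1.65% of all 35116 promoters of the same length. Its core TGACG, which lies within the full element, was held by 17 of the 38, belonging to 16 members, and by 21.2% of all promoters. The CArG box, the site of serum response factor, was found in 2 of the 38 (EGR1 and EGR2) and in 1.16% of all promoters. The TATA box TATAAA was in 6 (15.8%) and in 10.7% of all promoters, and the E-box CACGTG in 6 and in 6.34%. The AP-1 site TGANTCA and the EGR site GCGTGGGCG were in 0 of the 38, against 6.57% and 0.720% of all promoters. Among the C4-2 groups, DUSP1 was highest with TCE-5002 alone, and JUND, GADD45B and JUNB had their highest mean with both inhibitors. Their promoters are shown, with the element, its core and the TATA box in capitals. They lie at chr5:172771196-172771445 (minus strand) for DUSP1, chr19:18281623-18281872 (minus strand) for JUND, chr19:2475877-2476126 (plus strand) for GADD45B and chr19:12791236-12791485 (plus strand) for JUNB.
DUSP1: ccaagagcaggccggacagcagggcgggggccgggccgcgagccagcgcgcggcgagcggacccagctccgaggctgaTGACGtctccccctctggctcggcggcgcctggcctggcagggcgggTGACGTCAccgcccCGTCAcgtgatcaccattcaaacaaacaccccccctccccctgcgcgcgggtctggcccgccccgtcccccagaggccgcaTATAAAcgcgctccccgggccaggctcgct
JUND: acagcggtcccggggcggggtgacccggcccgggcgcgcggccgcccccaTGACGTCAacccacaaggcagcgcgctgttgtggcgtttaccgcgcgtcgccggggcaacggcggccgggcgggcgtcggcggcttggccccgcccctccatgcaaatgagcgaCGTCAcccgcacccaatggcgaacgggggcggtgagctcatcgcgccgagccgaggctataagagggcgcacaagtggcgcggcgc
GADD45B: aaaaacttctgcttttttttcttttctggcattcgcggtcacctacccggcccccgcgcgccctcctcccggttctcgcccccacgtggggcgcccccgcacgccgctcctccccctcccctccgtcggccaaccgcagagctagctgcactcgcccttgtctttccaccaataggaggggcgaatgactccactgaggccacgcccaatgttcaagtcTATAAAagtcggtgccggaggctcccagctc
JUNB: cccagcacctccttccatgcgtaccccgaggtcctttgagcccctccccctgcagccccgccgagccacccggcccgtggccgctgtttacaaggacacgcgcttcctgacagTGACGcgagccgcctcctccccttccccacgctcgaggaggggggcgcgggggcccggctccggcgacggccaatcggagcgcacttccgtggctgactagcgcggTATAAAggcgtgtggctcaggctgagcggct
In DUSP1 the full element began 125 bases before the start and the TATA box 30 bases before it. JUND held the full element 200 bases before the start and no TATAAA, GADD45B held a TATA box 31 bases before the start and no TGACG, and JUNB held a TATA box at the same distance and the core alone.

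**Figure D1:**
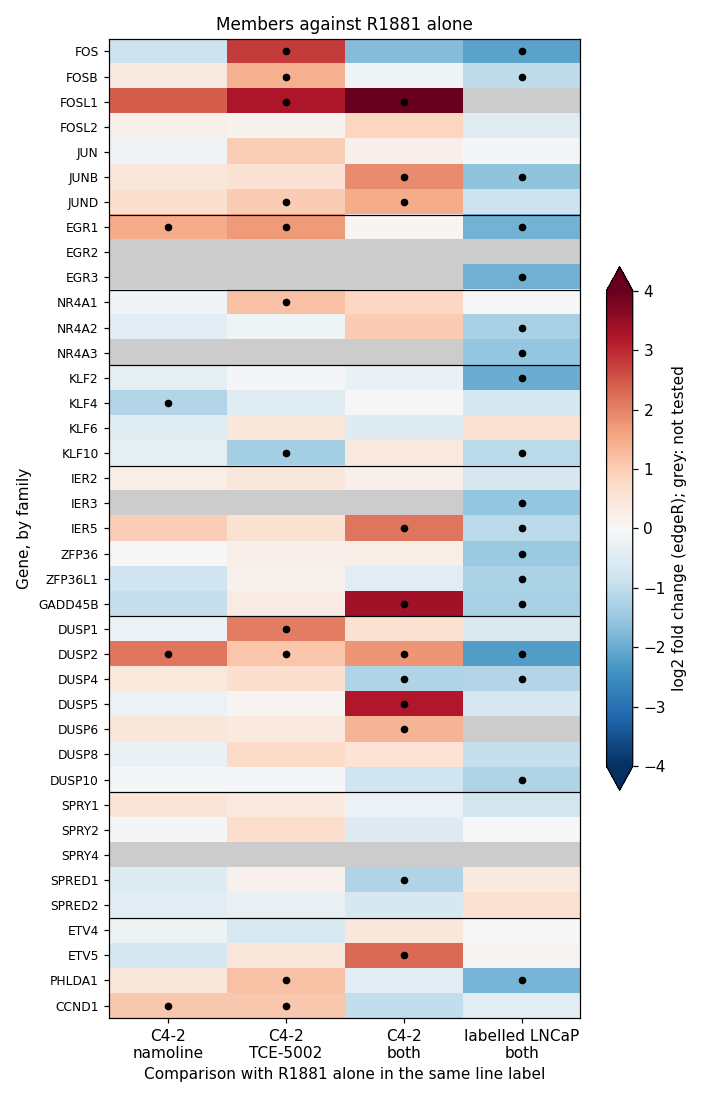
Log2 fold change of each member (rows, by family) against R1881 alone of the same line label in 4 comparisons (columns), on a colour scale that is clipped at 4 either way. Black dots mark members past the threshold and grey cells members that were not tested; the column for the libraries labelled LNCaP holds 18 dots, all on the blue side, while the C4-2 columns hold 4, 11 and 11.

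Per kilobase of transcript, the most abundant members with R1881 alone in C4-2 were JUND, an AP-1 subunit, at 31.0 ± 3.49 CPM per kb (SD, n = 2) and CCND1, the cyclin that drives passage through G1, at 24.6 ± 1.54. JUN at 13.5 ± 0.439 and the RNA-binding protein ZFP36L1 at 13.5 ± 0.0019 came next and did not differ beyond their spread. In the libraries labelled LNCaP the order was another: JUN led at 124.9 ± 0.111 CPM per kb, followed by JUND at 109.9 ± 2.47, DUSP1 at 23.6 ± 3.77 and IER5 at 23.3 ± 1.23, the last pair within their spread. With both inhibitors in C4-2, JUND (87.9 ± 12.7), JUNB (35.2 ± 7.58) and GADD45B (29.04 ± 3.78) led, the last pair within their spread. With both inhibitors in the libraries labelled LNCaP, JUN (114.9 ± 4.66) and JUND (59.5 ± 10.4) still led. Summed over the 39 members, the level was 611 and 638 CPM with R1881 alone in C4-2 and 1471 and 1362 in the libraries labelled LNCaP.

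With both inhibitors in C4-2, GADD45B, DUSP5, ETV5, IER5, JUNB, JUND and DUSP2 rose, the first pair by more than 3 on the log2 scale, FOSL1 and DUSP6 passed higher on low counts, and DUSP4 and SPRED1 fell. By family, 3 of the 7 phosphatases passed higher and 1 lower, 3 of the 7 AP-1 subunits passed higher, and so did 2 of the 5 IER and RNA decay or stress genes tested. JUN itself did not pass (0.21 ± 0.12, adjusted p = 0.16), and FOS, FOSB and EGR1 were under 1 CPM with R1881 alone as well as with both. Of the 34 members tested, 11 passed the threshold (32.4%), 9 higher and 2 lower, against 21.7% of the 17702 genes tested in either direction, 8.9% higher and 12.8% lower. The median log2 fold change was 0.23 over the members and -0.03 over all genes tested. With the adjusted p alone, and no limit on size, 21 members were counted, against 50.6% of all genes. All but DUSP6 of the 11 past both limits kept their call in each of the 12 alternatives run on them.

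Among the phosphatases, DUSP5, a nuclear phosphatase that binds ERK, was at 2.15 and 1.98 CPM with R1881 alone, 1.88 and 1.68 with namoline, 2.47 and 1.98 with TCE-5002 and 18.5 and 20.4 with both. Both libraries with both inhibitors stood apart from the other 6, which lay between 1.68 and 2.47 CPM (3.21 ± 0.21, adjusted p = 1.40e-08, 9.27-fold). DUSP2, another nuclear phosphatase of ERK and p38, was at 4.58 and 5.05 CPM with R1881 alone, 19 and 24.1 with namoline, 9.14 and 11.7 with TCE-5002 and 15.4 and 17.6 with both. Its 6 inhibitor libraries were all above both with R1881 alone, and with both inhibitors it was higher by 1.76 ± 0.19, adjusted p = 2.71e-06. DUSP4, a nuclear phosphatase that ERK itself induces, went the other way. It was at 13.1 and 12.7 CPM with R1881 alone, 16.5 and 18.3 with namoline, 24 and 18 with TCE-5002 and 6.37 and 4.78 with both, lowest in the libraries with both (-1.22 ± 0.19, adjusted p = 1.03e-04). DUSP6, the cytoplasmic phosphatase specific for ERK, was near the limit of detection, with 7 and 7 counts with R1881 alone and 21 and 13 with both (1.35 ± 0.54, adjusted p = 0.046), a call kept in 5 of 12 alternatives and not in DESeq2 (adjusted p = 0.14). DUSP8, which acts on JNK and p38, was at 21.7 and 25.4 CPM with R1881 alone, 18.4 and 21 with namoline, 30.3 and 49.9 with TCE-5002 and 30.7 and 38.2 with both, higher with both by less than 2-fold (0.54 ± 0.20). DUSP10, which acts on the same kinases, was at 7.48 and 5.37 CPM with R1881 alone, 5.82 and 6.77 with namoline, 6.36 and 6.37 with TCE-5002 and 3.88 and 3.66 with both, lower with both by less than 2-fold (-0.79 ± 0.22).

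Of the AP-1 subunits, JUNB was at 14.7 and 19.6 CPM with R1881 alone, 19.9 and 27.5 with namoline, 19.4 and 32.1 with TCE-5002 and 54.3 and 73.8 with both. With both inhibitors it lay above each of the other 6 C4-2 libraries (1.89 ± 0.23, adjusted p = 7.39e-06). JUND was at 53.2 and 62.4 CPM with R1881 alone, 72.9 and 111 with namoline, 87 and 150.5 with TCE-5002 and 147 and 181 with both, and the library with the lower level of the pair with both lay just under the higher TCE-5002 library (1.49 ± 0.22, adjusted p = 5.23e-05). FOSL1, a FOS-type partner associated with invasive cells, was close to absent with R1881 alone, at 0 and 1 counts, and had 24 and 16 counts with both. The ratio of these counts after scaling was 42.04 (95% exact interval 7.13 to 1702, counting error only), and the fitted change depends on the prior count (5.09 ± 0.94, adjusted p = 3.55e-04). FOSL2 was at 36.3 and 39 CPM with R1881 alone, 40.3 and 48.5 with namoline, 42 and 42.3 with TCE-5002 and 63.5 and 73.4 with both. The libraries with both lay above the other 6, by less than 2-fold (0.85 ± 0.13). FOS was at 0.795 and 0.768 CPM with R1881 alone, 0.588 and 0.30 with namoline, 10.0 and 1.12 with TCE-5002 and 0.221 and 0.248 with both, and with both inhibitors its change did not pass the test (-1.72 ± 1.14, adjusted p = 0.22). FOSB was at 0.515 and 0.32 CPM with R1881 alone, 0.47 and 0.659 with namoline, 1.37 and 0.963 with TCE-5002 and 0.332 and 0.434 with both, with overlapping groups for both against R1881 alone (-0.18 ± 0.58, adjusted p = 0.82).

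GADD45B, a stress sensor that acts on the p38 and JNK arm, gave the clearest change of the stress genes. It was at 6.27 and 5.63 CPM with R1881 alone, 2.82 and 3.54 with namoline, 7.04 and 8.03 with TCE-5002 and 56.4 and 67.8 with both, so that the lowest library with both held over 7 times the highest of the others (3.36 ± 0.17, adjusted p = 1.24e-09, 10.3-fold). IER5, an immediate-early gene that acts on heat shock factor, was at 3.32 and 4.16 CPM with R1881 alone, 6.99 and 7.79 with namoline, 6.15 and 5.25 with TCE-5002 and 16.6 and 16.4 with both. Each single inhibitor group lay above R1881 alone and the group with both above all (2.14 ± 0.19, adjusted p = 4.13e-07). ZFP36, the RNA decay factor tristetraprolin, was at 7.72 and 8.38 CPM with R1881 alone, 6.7 and 9.95 with namoline, 7.98 and 10.8 with TCE-5002 and 10.0 and 9.24 with both, and its relative ZFP36L1 at 69.4 and 69.4 CPM with R1881 alone, 38.4 and 42 with namoline, 75.3 and 81.8 with TCE-5002 and 47.8 and 55.4 with both. For IER2 and these genes the groups with both and with R1881 alone differed by less than 2-fold. Their log2 fold changes were 0.19, 0.25 and -0.44, of which that of ZFP36L1 alone had an adjusted p under 0.05 (0.0058).

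ETV5, an ETS factor transcribed in response to ERK, was at 2.39 and 1.86 CPM with R1881 alone, 1.41 and 1.32 with namoline, 2.73 and 3.21 with TCE-5002 and 10.6 and 10.1 with both. The libraries with both stood above all others (2.26 ± 0.23, adjusted p = 1.23e-06, 4.77-fold), whereas its relative ETV4 stayed under 1 CPM in every library. SPRED1, an inhibitor of RAS activation that recruits neurofibromin, was at 6.22 and 4.86 CPM with R1881 alone, 3.35 and 4.43 with namoline, 5.99 and 6.74 with TCE-5002 and 2.33 and 2.54 with both. It was lowest with both (-1.21 ± 0.24, adjusted p = 6.89e-04). SPRED2 was at 28.9 and 29.6 CPM with R1881 alone, 20.0 and 23 with namoline, 25.7 and 22.7 with TCE-5002 and 19.7 and 18.4 with both, lower with both by less than 2-fold (-0.63 ± 0.14). CCND1 was at 113 and 124 CPM with R1881 alone, 238 and 271 with namoline, 256 and 249 with TCE-5002 and 62.5 and 58.2 with both, and its drop with both inhibitors fell just short of 2-fold (-0.99 ± 0.11, adjusted p = 4.79e-06). Of the orphan nuclear receptors, NR4A1 was higher by 0.84 ± 0.17, also under 2-fold, and NR4A2 was at 0.327 and 0.384 CPM with R1881 alone, 0.176 and 0.36 with namoline, 0.473 and 0.161 with TCE-5002 and 0.664 and 0.806 with both (1.03 ± 0.60, adjusted p = 0.16). Of the KLF genes, KLF2 was at 1.87 and 1.22 CPM with R1881 alone, 0.823 and 1.62 with namoline, 1.21 and 1.82 with TCE-5002 and 0.997 and 1.68 with both and KLF6 at 32 and 28.7 CPM with R1881 alone, 22 and 21.9 with namoline, 40.4 and 44.2 with TCE-5002 and 22 and 21.1 with both. With both inhibitors neither reached 2-fold (-0.26 ± 0.41 and -0.51 ± 0.13).

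**Figure D2:**
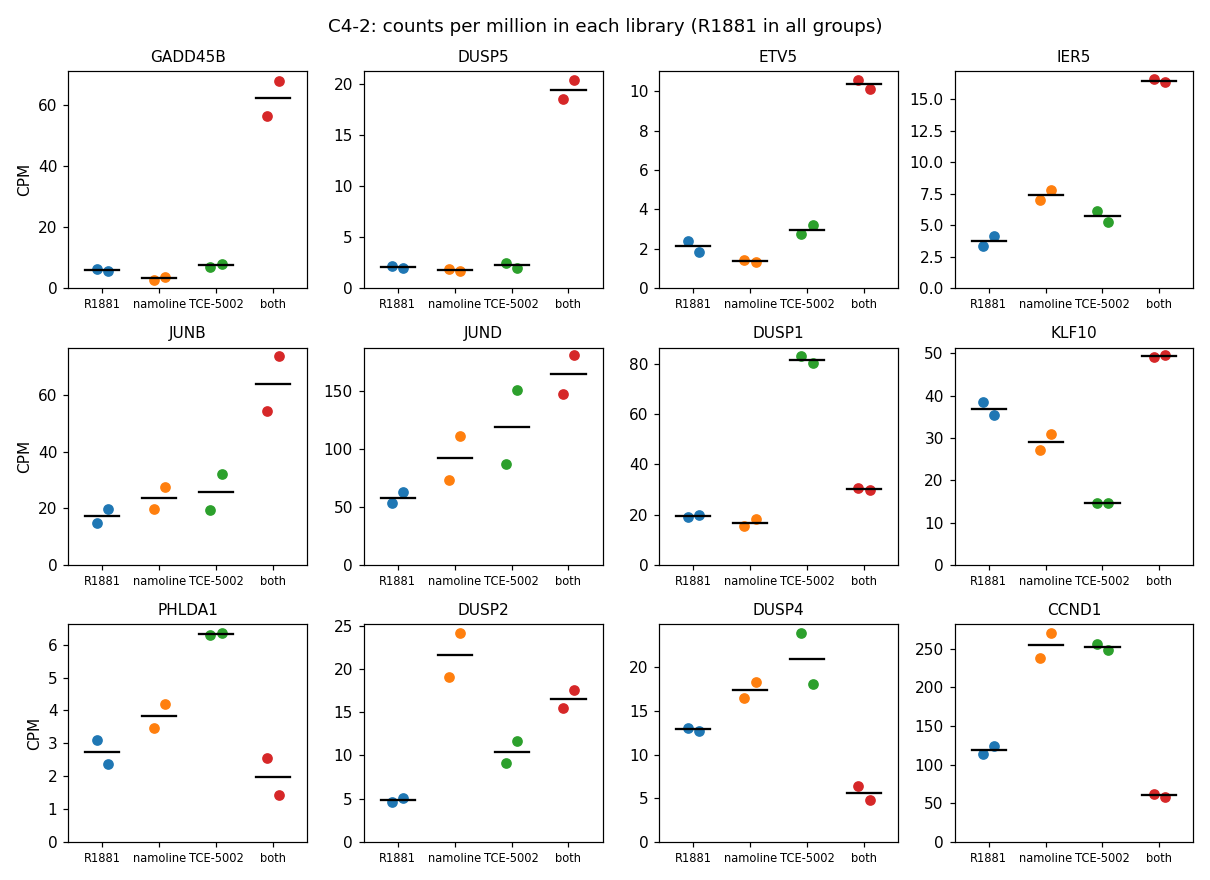
CPM in each of the 8 C4-2 libraries for 12 members (points; the line is the mean of the 2 libraries of a group), with each axis starting at 0. GADD45B, DUSP5 and ETV5 stand apart in the libraries with both inhibitors, DUSP1 and PHLDA1 in those with TCE-5002, and CCND1 is high with either inhibitor alone and low with both.

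With TCE-5002 alone in C4-2 the calls included FOSL1, JUND and DUSP2, which also passed with both. DUSP1, the phosphatase of p38, JNK and ERK that is itself an immediate-early gene, rose 4.12-fold, with PHLDA1 and CCND1 higher and the TGF-beta-induced repressor KLF10 lower. Of the 34 members tested, 11 passed (32.4%), 10 higher and 1 lower, against 11.9% of all genes tested, 5.07% higher and 6.83% lower. After the GC correction 5 passed, and leaving out 1 library at a time gave 6 to 9, with 6 without R1881 replicate 1 and 7 without TCE-5002 replicate 2. After the GC correction 2120 of the 17702 genes tested passed, a share similar to that of 5 of the 34 members. On the higher side these were 755 genes and 4 members. DUSP1, KLF10 and PHLDA1 were the members that kept their call in every alternative. With the adjusted p alone 17 were counted, against 36.8% of all genes. The median log2 fold change was 0.45 over the members and -0.00 over all genes tested.

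DUSP1 was at 19.2 and 19.8 CPM with R1881 alone, 15.3 and 18.1 with namoline, 82.9 and 80.1 with TCE-5002 and 30.5 and 29.7 with both. Both TCE-5002 libraries lay at over 2 times any other C4-2 library (2.04 ± 0.13, adjusted p = 8.65e-08; 1.94 after the GC correction). KLF10 was at 38.5 and 35.4 CPM with R1881 alone, 27.2 and 31 with namoline, 14.8 and 14.6 with TCE-5002 and 49.2 and 49.6 with both, lowest with TCE-5002 and highest with both (-1.36 ± 0.13, adjusted p = 2.52e-06). PHLDA1, a pleckstrin-homology protein induced by growth factors, was at 3.09 and 2.37 CPM with R1881 alone, 3.47 and 4.19 with namoline, 6.3 and 6.37 with TCE-5002 and 2.55 and 1.43 with both, with the pair with TCE-5002 above the rest (1.18 ± 0.26, adjusted p = 0.0024). CCND1 was higher by 1.07 ± 0.11, adjusted p = 5.09e-06, a change of 0.80 after the GC correction, and both libraries lay above both with R1881 alone. JUN was at 46.7 and 48.9 CPM with R1881 alone, 40.0 and 47.5 with namoline, 96.3 and 96.6 with TCE-5002 and 57.3 and 54.1 with both, a difference of 0.99 ± 0.12, adjusted p = 1.72e-05, just under the 2-fold line.

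Other calls with TCE-5002 had few counts, leaned on 1 library or, like that of CCND1, were under 2-fold after the GC correction. FOS had 17 and 12 counts with R1881 alone and 191 and 21 with TCE-5002, and its rise of 2.80 ± 0.70, adjusted p = 0.0062 was 0.50 without TCE-5002 replicate 1 and had an adjusted p = 0.18 after the GC correction. FOSL1 had 8 and 4 counts with TCE-5002, a count ratio of 11.4 (95% exact interval 1.69 to 488.6, counting error only) over R1881 alone (3.23 ± 1.18, adjusted p = 0.042). FOSB (1.41 ± 0.48, adjusted p = 0.032) lost its call in 7 of 12 alternatives, the GC correction among them (adjusted p = 0.059). EGR1, the zinc finger factor read out most often for ERK activity, was at 0.281 and 0.448 CPM with R1881 alone, 0.999 and 1.02 with namoline, 1.05 and 1.34 with TCE-5002 and 0.554 and 0.186 with both, with 6 and 7 counts with R1881 alone (1.71 ± 0.53, adjusted p = 0.018). JUND (1.02 ± 0.22, adjusted p = 0.002), NR4A1 (1.16 ± 0.16, adjusted p = 7.15e-05) and DUSP2 (1.09 ± 0.20, adjusted p = 5.05e-04) passed, but were at 0.47, 0.86 and 0.77 after the GC correction. NR4A1 was at 33 and 35.4 CPM with R1881 alone, 28.4 and 35.4 with namoline, 63.8 and 91.4 with TCE-5002 and 57 and 66.9 with both. The part of GC-related differences between libraries in these calls was not tested further.

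Namoline alone moved few members. The nuclear phosphatase DUSP2 rose 4.42-fold, CCND1 rose about as much as with TCE-5002, and KLF4, a factor of epithelial differentiation, fell. Of the 34 members tested, 4 passed (11.8%), 3 higher and 1 lower, which is near the 12.1% of all genes tested, 5.16% higher and 6.9% lower. With the adjusted p alone 11 were counted, against 35.1% of all genes. The medians were -0.09 over the members and -0.00 over all genes. After the GC correction 5 members passed, 2 of them higher and the others lower. Beside them 2154 of the 17702 genes tested passed, 769 of them higher. Without R1881 replicate 1, 2 members passed.

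DUSP2 kept its call in every alternative (2.14 ± 0.19, adjusted p = 6.92e-07; 1.87 after the GC correction). KLF4 was at 14.6 and 10.9 CPM with R1881 alone, 6.17 and 5.33 with namoline, 8.41 and 10.3 with TCE-5002 and 13.1 and 12.8 with both, so that the namoline pair was the lowest (-1.18 ± 0.20, adjusted p = 2.99e-04). CCND1 rose by 1.08 ± 0.11, adjusted p = 3.26e-06 and was at 0.83 after the GC correction. EGR1 passed by a narrow margin (1.47 ± 0.54, adjusted p = 0.046) and in 4 of 12 alternatives. The 7 members with an adjusted p under 0.05 at less than 2-fold were IER5 (0.97) and JUND (0.65) on the higher side and GADD45B (-0.93), ZFP36L1 (-0.81), KLF6 (-0.49), SPRED2 (-0.46) and KLF10 (-0.37) on the lower. GADD45B was thus lowest with namoline alone and highest with both.

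The joint effect differed from the sum of the single effects on the log2 scale for many members, as it did for many genes outside them. The interaction, the effect of both minus the sum of the separate effects, passed the threshold for 15 of the 34 members tested (44.1%), 5 positive and 10 negative, against 35.3% of all genes tested, 16.8% positive and 18.6% negative. After the GC correction 12 of the 34 members passed, beside 6180 of the 17702 genes tested, a similar share. Positive interactions were those of GADD45B, DUSP5, ETV5, KLF10 and KLF4. Negative ones included CCND1, EGR1, DUSP4, PHLDA1, DUSP2, DUSP1 and the Sprouty genes SPRY1 and SPRY2.

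GADD45B had an interaction of 3.98 ± 0.26, adjusted p = 7.28e-09, DUSP5 of 3.37 ± 0.33, adjusted p = 5.23e-07 and ETV5 of 2.48 ± 0.36, adjusted p = 2.72e-05. For these genes neither inhibitor alone gave a rise past the threshold. CCND1 had the opposite form: it rose with each inhibitor and was below R1881 alone with both, an interaction of -3.13 ± 0.16, adjusted p = 9.84e-10. KLF10 (2.13 ± 0.18, adjusted p = 1.48e-07) and KLF4 (1.65 ± 0.27, adjusted p = 1.08e-04) were lower with at least 1 single inhibitor and near or above the R1881 level with both. DUSP4 was higher than with R1881 alone in the libraries of each single inhibitor, by less than 2-fold, and lower with both (-2.30 ± 0.26, adjusted p = 2.43e-06). DUSP1 (-1.18 ± 0.18, adjusted p = 5.61e-05) and PHLDA1 (-2.10 ± 0.39, adjusted p = 2.93e-04) were high with TCE-5002 and lower when namoline was added. EGR1 showed -3.10 ± 0.76, adjusted p = 0.0027 on low counts. SPRY1 was at 3.13 and 6.21 CPM with R1881 alone, 5.47 and 7.97 with namoline, 6.3 and 5.99 with TCE-5002 and 3.99 and 3.78 with both, and its interaction of -1.18 ± 0.40, adjusted p = 0.019 ranged from -1.74 to -0.75 when 1 library was left out. SPRY2 was at 2.01 and 2.43 CPM with R1881 alone, 1.76 and 2.58 with namoline, 3.68 and 3.59 with TCE-5002 and 1.33 and 1.8 with both (-1.17 ± 0.42, adjusted p = 0.028). DUSP2 (-1.47 ± 0.26, adjusted p = 1.93e-04) and DUSP1 were at -0.87 and -0.95 after the GC correction, under 2-fold, and FOS (-3.69 ± 1.49, adjusted p = 0.048) and FOSB (-1.96 ± 0.75, adjusted p = 0.037) kept their call in 3 and 5 of 16 alternatives, with adjusted p = 0.38 and 0.092 after the GC correction. IER2, with -0.53 and not past the threshold, changed sign after the GC correction.

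**Figure D3:**
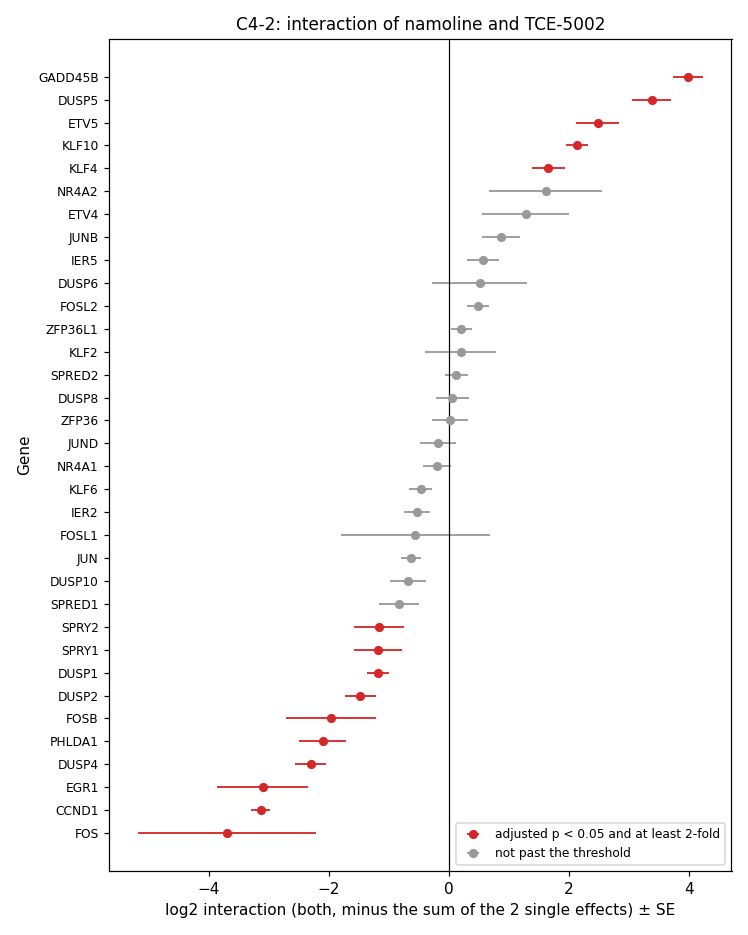
Log2 interaction of namoline and TCE-5002 in C4-2 for the 34 members tested (points, with bars of 1 standard error); red marks the 15 past the threshold. GADD45B, DUSP5 and ETV5 are at the top, CCND1 and FOS at the bottom, and FOS carries the longest bar.

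Set against each single inhibitor, the combination showed the same genes from another side; these contrasts share the libraries with both and are given as values only. Against namoline, 10 members passed (29.4%), 7 higher and 3 lower, which is near the 27.5% of all genes tested (12.8% higher, 14.7% lower). GADD45B was higher by 4.29 ± 0.18, DUSP5 by 3.45 ± 0.21 and CCND1 lower by -2.06 ± 0.12. Against TCE-5002, 16 passed (47.1%), 7 higher and 9 lower, with 26.1% of all genes tested called (11.7% higher, 14.4% lower). There DUSP1 was at -1.43 ± 0.13, PHLDA1 at -1.65 ± 0.27 and CCND1 at -2.06 ± 0.12, whereas KLF10 was at 1.76 ± 0.13. Marker levels moved between the same groups: the 10 luminal markers summed to 3760 to 3848 CPM with R1881 alone, 4257 to 4561 with namoline, 5565 to 5810 with TCE-5002 and 2427 to 2471 with both. Within the sum, KRT8 rose with both, from 373.5 ± 30.1 to 556.4 ± 17.6 CPM (SD, n = 2). KRT18 rose from 320.2 ± 1.69 to 355.2 ± 14.5 CPM, and the other luminal markers were lower with both. With TCE-5002 CDH1 was lower (614.6 ± 50.0 against 969 ± 30.2 CPM), KRT8 and KRT18 stayed within their spread, and the rest were higher. The 5 neuroendocrine markers summed to 8.12 to 8.56 CPM with R1881 alone, 13.2 to 13.5 with namoline, 18.6 to 37.1 with TCE-5002 and 22.9 to 23.1 with both, and the 7 mesenchymal markers to 64.1 to 101.2 CPM over the 8 libraries. The basal marker TP63 had at most 1 count in a group of C4-2. The 5 immune markers stayed at or below 1.38 CPM summed and the 3 basal ones at or below 0.420. The part of these shifts in the results was not tested. Mitochondrial transcripts took 5.58% to 5.64% of counts with TCE-5002, 6.53% to 7.66% with R1881 alone, 6.84% to 7.48% with both and 8.82% to 10.2% with namoline, and their part was not tested either.

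In the libraries labelled LNCaP, both inhibitors went with lower levels of the immediate-early programme across nearly all of its families. Genes of the AP-1, EGR, NR4A, KLF, IER and DUSP families fell, whereas no Sprouty or SPRED gene and no ETS factor passed the threshold. Of the 35 members tested, 18 passed the threshold (51.4%), all lower, against 18.7% of the 17565 genes tested, 11.3% lower and 7.4% higher. No member rose past the threshold in the edgeR fit behind these calls or in DESeq2. DUSP6 did in edgeR when low genes were kept or all 12 libraries were fitted together. In the fit behind the calls 3 members had an unadjusted p under 0.05 and a positive sign, KLF6 (0.61 ± 0.11), SPRED2 (0.60 ± 0.15) and SPRED1 (0.39 ± 0.17). The median log2 fold change was -1.03 over the members and -0.00 over all genes tested. Without the library whose header names namoline alone, 20 members passed, the same 18 with JUND lower and DUSP6 higher. EGR3 (-2.46) and PHLDA1 (-1.33) then moved most, and of the other 16 KLF2 did (-1.71). FOS was at -2.05, EGR1 at -1.74 and DUSP2 at -2.26. Without the other library with both inhibitors 16 passed, and after the GC correction 15. Beside the 15 members after the GC correction, 2936 of the 17565 genes tested passed. FOS, FOSB, EGR3, KLF10, ZFP36L1 and GADD45B lost their call in at least 1 alternative. With the adjusted p alone 30 were counted, 27 lower and 3 higher, against 56.3% of all genes.

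Of the first responders, FOS was at 22.9 and 10.7 CPM with R1881 alone and 3.34 and 3.92 with both. The higher R1881 library held over 2 times the lower, and both lay above the pair with both inhibitors (-2.14 ± 0.25, adjusted p = 3.82e-08). In the fit of all 12 libraries its adjusted p was 0.055. EGR1 was at 39.3 and 20.4 CPM with R1881 alone and 6.67 and 8.62 with both, with a similar gap between the R1881 libraries and no overlap with the treated pair (-1.89 ± 0.21, adjusted p = 1.14e-08). JUNB was at 16.2 and 14.5 CPM with R1881 alone and 4.97 and 4.59 with both, the groups being far apart (-1.62 ± 0.19, adjusted p = 4.73e-09; -1.01 after the GC correction). FOSB was at 5.35 and 3.02 CPM with R1881 alone and 2.12 and 1.81 with both (-1.03 ± 0.31, adjusted p = 0.0046), and at -0.74 after the GC correction it was under 2-fold. Without R1881 replicate 1 it was at -0.58. EGR3 was at 0.947 and 0.869 CPM with R1881 alone and 0.303 and 0.155 with both (-1.93 ± 0.64, adjusted p = 0.01; adjusted p = 0.075 in DESeq2), on 20 and 19 counts with R1881 alone and 5 and 3 with both. FOSL2 was at 16.4 and 16.6 CPM with R1881 alone and 13 and 9.65 with both (-0.49 ± 0.17, adjusted p = 0.013). FOSL1 had 6 and 12 counts with R1881 alone and 3 and 6 with both. JUN, the most abundant AP-1 subunit per kilobase, was at 442 and 442 CPM with R1881 alone and 419 and 395 with both (-0.06 ± 0.11, adjusted p = 0.66). JUND was at 208 and 202 CPM with R1881 alone and 124 and 97.1 with both, lower by -0.83 ± 0.11, but at 0.08 after the GC correction, with the opposite sign.

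The orphan receptors parted. NR4A2 was at 2.89 and 3.11 CPM with R1881 alone and 1.15 and 1.19 with both (-1.29 ± 0.34, adjusted p = 0.0016) and NR4A3 at 5.87 and 5.76 CPM with R1881 alone and 1.82 and 1.96 with both (-1.56 ± 0.27, adjusted p = 8.17e-06), with no overlap in either. NR4A1 was at 14.9 and 14.2 CPM with R1881 alone and 17.2 and 10.3 with both, with overlapping groups (-0.02 ± 0.18, adjusted p = 0.92). Among the KLF genes, KLF2 was at 4.83 and 5.67 CPM with R1881 alone and 0.971 and 1.55 with both (-1.98 ± 0.30, adjusted p = 1.14e-06; -1.24 after the GC correction) and KLF10 at 87.4 and 75.4 CPM with R1881 alone and 36.7 and 36.9 with both (-1.08 ± 0.11, adjusted p = 7.36e-10; -0.99 without R1881 replicate 1). KLF6 was at 72.5 and 64.5 CPM with R1881 alone and 94.3 and 106 with both, the other way by less than 2-fold. KLF4 was at 28.8 and 24.7 CPM with R1881 alone and 14.6 and 17.1 with both, lower by less than 2-fold (-0.69 ± 0.14).

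Every IER and RNA decay or stress gene had a negative change with an adjusted p under 0.05, and 5 of the 6 passed the 2-fold line. IER3, an inhibitor of apoptosis downstream of ERK, was at 3.5 and 3.2 CPM with R1881 alone and 0.971 and 1.19 with both (-1.56 ± 0.34, adjusted p = 1.85e-04). IER5 was at 101 and 93.9 CPM with R1881 alone and 44 and 43.8 with both, with replicates close together and groups far apart (-1.09 ± 0.11, adjusted p = 2.11e-10). ZFP36 was at 7.25 and 6.9 CPM with R1881 alone and 2.37 and 2.43 with both (-1.50 ± 0.25, adjusted p = 3.42e-06) and ZFP36L1 at 69.4 and 65.1 CPM with R1881 alone and 27.2 and 26.1 with both (-1.28 ± 0.12, adjusted p = 5.08e-11). GADD45B was at 18.2 and 15.8 CPM with R1881 alone and 7.04 and 6.3 with both (-1.29 ± 0.17, adjusted p = 1.11e-07); after the GC correction ZFP36L1 and GADD45B were at -0.98 and -0.95, just under 2-fold. IER2 (-0.67 ± 0.14) was the member under 2-fold, and at -0.12 after the GC correction.

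Of the phosphatases, DUSP2 was at 6.77 and 4.02 CPM with R1881 alone and 1.09 and 1.08 with both (-2.24 ± 0.32, adjusted p = 3.49e-07), DUSP4 at 33 and 29.2 CPM with R1881 alone and 13.8 and 12.6 with both (-1.17 ± 0.14, adjusted p = 1.50e-08) and DUSP10 at 3.36 and 4.21 CPM with R1881 alone and 1.58 and 1.55 with both (-1.21 ± 0.31, adjusted p = 0.001). None of these 3, all called lower, overlapped between the groups, and the share of all genes without overlap was not counted. DUSP1 was at 53 and 42.2 CPM with R1881 alone and 30.4 and 30.6 with both, a difference of -0.58 ± 0.13 that did not reach 2-fold, and DUSP5 at 5.07 and 4.11 CPM with R1881 alone and 2.43 and 3.1 with both (-0.66 ± 0.27). DUSP8 was at 44.3 and 41.4 CPM with R1881 alone and 21.2 and 21.8 with both, lower by -0.93 ± 0.13 and by less (-0.40) after the GC correction. DUSP6 had 6 and 6 counts with R1881 alone and 8 and 25 with both. PHLDA1 was at 3.79 and 2.93 CPM with R1881 alone and 0.425 and 1.29 with both (-1.86 ± 0.38, adjusted p = 9.58e-05); the 2 libraries with both inhibitors differed from each other by about 3 times. ETV5, at 2.27 and 2.06 CPM with R1881 alone and 1.76 and 2.53 with both, overlapped between groups (0.06 ± 0.33, adjusted p = 0.9), as did SPRY2, at 23.3 and 25.5 CPM with R1881 alone and 26 and 21.4 with both. SPRY1 was at 17.7 and 19 CPM with R1881 alone and 10.4 and 10.7 with both, lower by -0.74 ± 0.16. SPRED1 was at 10.6 and 12.2 CPM with R1881 alone and 15.5 and 13.1 with both and SPRED2 at 13.7 and 14.9 CPM with R1881 alone and 22.1 and 19.7 with both, in both cases with the treated pair above. CCND1 was at 45.5 and 39.9 CPM with R1881 alone and 31.9 and 28.9 with both, lower by -0.43 ± 0.13, and close to 0 (-0.00) after the GC correction.

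**Figure D4:**
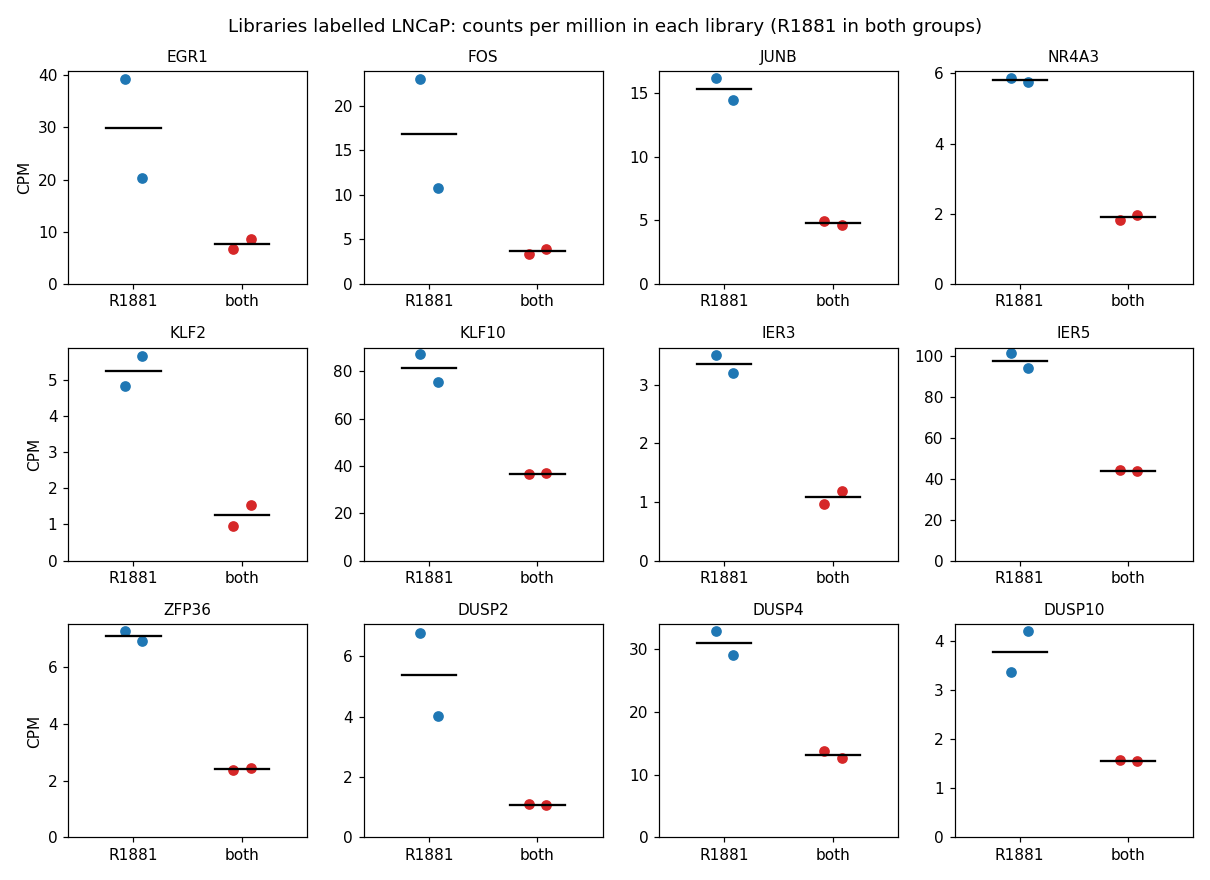
CPM in each of the 4 libraries labelled LNCaP for 12 members past the threshold (points; the line is the mean of the 2 libraries of a group), with each axis starting at 0. The 12 were taken from the 18 members called lower, so that the libraries with both inhibitors lie lower is no further result. The 2 R1881 libraries differ most, relative to their mean, for FOS and EGR1.

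Markers moved in these libraries too. The 10 luminal markers summed to 889 to 968 CPM with R1881 alone and 405 to 518 with both, the 7 mesenchymal ones to 788.5 to 871 and 724 to 763, the 5 neuroendocrine ones to 76.3 to 78.2 and 63.2 to 66.5, and the 5 immune ones to 3.27 to 4.07 and 1.64 to 3.51. The basal marker TP63 had 3 counts with R1881 alone and 0 with both, and the immune marker PTPRC had 0 counts in all 4 libraries. Their part in the member results was not tested.

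The effect of both inhibitors therefore differed in size or sign between the line labels for many members. The difference of the 2 effects was fitted directly over the 8 libraries concerned. It passed the threshold for 19 of the 37 members tested (51.4%), 16 more positive in C4-2 and 3 more negative, against 25.4% of the 19763 genes tested, 11.5% more positive and 13.9% more negative. GADD45B and IER5 rose past the threshold in C4-2 and fell past it in the libraries labelled LNCaP, as did JUNB and DUSP2. KLF6, SPRED1 and SPRED2 were the 3 with the opposite order. DUSP4, which fell past the threshold in both, had no value past the threshold in this contrast (-0.09 ± 0.22, adjusted p = 0.76). The line label, its marker profile and any difference in handling cannot be told apart here.

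**Figure D5:**
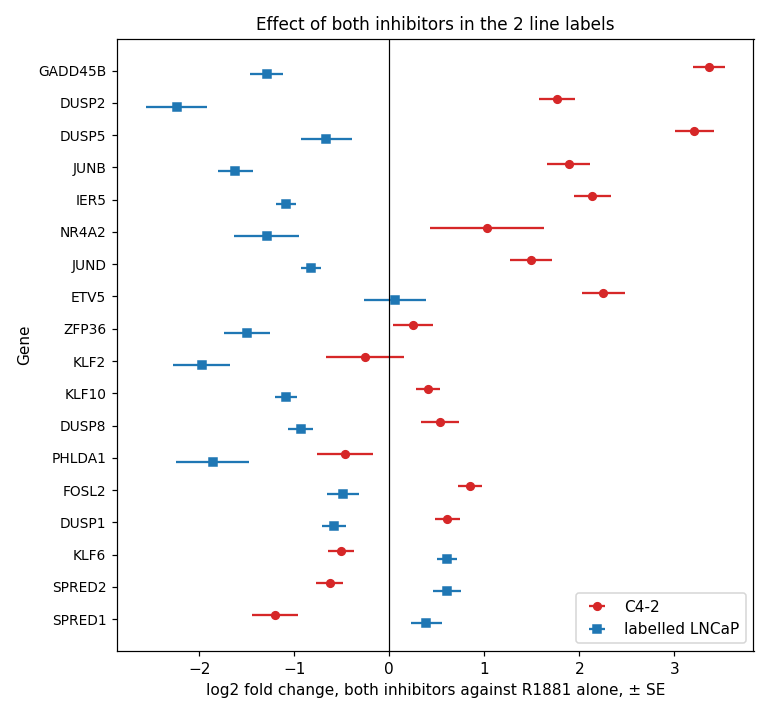
Log2 fold change with both inhibitors against R1881 alone in C4-2 (circles) and in the libraries labelled LNCaP (squares), with bars of 1 standard error, for the 18 members that differed between the labels and were tested in each. GADD45B, JUNB, IER5 and DUSP2 lie on opposite sides of 0, past 2-fold either way; after the GC correction GADD45B is at -0.95 in the libraries labelled LNCaP, under 2-fold, and JUND, also on opposite sides, loses its negative value.

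Before any inhibitor, the 2 line labels already differed. With R1881 alone, 23 of 37 members passed between C4-2 and the libraries labelled LNCaP (62.2%), 4 higher in C4-2 and 19 lower, against 50.4% of all genes tested, 24.3% higher and 26.2% lower. First responders were far lower in C4-2: EGR1 by -6.32 ± 0.42, IER3 by -5.73 ± 0.69, NR4A3 by -5.31 ± 0.43, FOS by -4.35 ± 0.34 and JUN by -3.15 ± 0.09 on the log2 scale. The Sprouty genes followed, SPRY2 by -3.41 ± 0.19 and SPRY1 by -1.96 ± 0.20. Higher in C4-2 were CCND1 (1.53 ± 0.10), NR4A1 (1.29 ± 0.15), FOSL2 (1.24 ± 0.13) and SPRED2 (1.08 ± 0.13). Also lower were IER5 (-4.67 ± 0.13), FOSB (-3.20 ± 0.40) and NR4A2 (-3.01 ± 0.41). The adjusted p of each of these named differences was at or below 1.99e-07. JUNB, DUSP2, ZFP36, ZFP36L1, ETV5 and PHLDA1 showed log2 differences from -0.22 to 0.24, with adjusted p from 0.21 to 0.89.

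The rest of the pathway, 120 genes in 7 lists, was counted in the same way, but is given without values after the GC correction. The lists held ligands and receptors, the RAS to ERK kinases, the JNK, p38 and ERK5 kinases, other negative regulators, upstream transcription factors, other immediate-early genes and other ERK output genes. With both inhibitors in C4-2, 34 of the 110 tested passed (30.9%), 24 higher and 10 lower, against 21.7% of all genes tested, 8.9% higher and 12.8% lower. Of the 23 RAS to ERK genes 2 passed, both higher: the scaffold KSR1 (2.42 ± 0.26, adjusted p = 2.70e-06) and HRAS (1.43 ± 0.15, adjusted p = 1.99e-06). Of the 25 other immediate-early genes tested 15 rose and 2 fell, with a median of 1.27. ATF3, a stress-induced repressor, was at 122 CPM with R1881 alone and 1834 with both (3.90 ± 0.12, adjusted p = 1.48e-11), BTG2, an inhibitor of proliferation, at 11.8 CPM with R1881 alone and 142 (3.57 ± 0.14, adjusted p = 7.63e-11), and the matricellular protein gene CCN1 at 2.78 CPM with R1881 alone and 38.2 (3.75 ± 0.19, adjusted p = 1.38e-09). Of the 5 ERK output genes tested 3 rose, among them the cytokine LIF (4.07 ± 0.26, adjusted p = 1.22e-08). SRF, the factor that binds the CArG box, rose (1.69 ± 0.15, adjusted p = 3.42e-07), and of 13 ligands and receptors 5 fell and 2 rose. The receptors ERBB3 (-1.21 ± 0.10, adjusted p = 3.07e-07), MET (-1.97 ± 0.29, adjusted p = 4.75e-05) and FGFR4 (-1.98 ± 0.21, adjusted p = 1.87e-06) were among those that fell. The 2 that rose, named after their values were seen, were the receptor FGFR1 (1.07 ± 0.30, adjusted p = 0.0076) and, at low counts, the ligand AREG (2.64 ± 0.74, adjusted p = 0.0084). The p38 kinase activator MAP2K6 fell (-2.94 ± 0.22, adjusted p = 7.10e-08).

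With the single inhibitors fewer of these genes passed. With TCE-5002 11 of 110 passed (10%), 6 higher and 5 lower, against 11.9% of all genes. With namoline 22 passed (20%), 9 higher and 13 lower, against 12.1% of all genes. With namoline 3 of the 25 other immediate-early genes tested passed higher and 6 lower, with a median of 0.23. ATF3 fell (-1.68 ± 0.12, adjusted p = 5.44e-08), as did the translation regulator PPP1R15A (-2.27 ± 0.18, adjusted p = 1.99e-07) and CEBPB (-1.75 ± 0.18, adjusted p = 3.28e-06). PLK2 (1.11 ± 0.18, adjusted p = 2.03e-04) and BTG2 (1.06 ± 0.13, adjusted p = 2.19e-05) rose with namoline. ETS2, an ETS factor that ERK phosphorylates, rose with TCE-5002 (1.12 ± 0.14, adjusted p = 2.70e-05) and with both (1.12 ± 0.14, adjusted p = 1.24e-05). DUSP9, a cytoplasmic phosphatase of ERK outside the members, rose with namoline (1.19 ± 0.18, adjusted p = 1.09e-04) and with TCE-5002 (1.02 ± 0.18, adjusted p = 4.13e-04).

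In the libraries labelled LNCaP 24 of 113 passed with both inhibitors (21.2%), 2 higher and 22 lower, against 18.7% of all genes tested, 7.4% higher and 11.3% lower. Without the library whose header names namoline alone 28 of 116 passed, 2 higher and 26 lower, and the 8 genes named next kept their call. The feedback inhibitors DUSP7 (-1.76 ± 0.13, adjusted p = 3.97e-13), DUSP14 (-1.23 ± 0.13, adjusted p = 3.89e-10) and ERRFI1 (-1.15 ± 0.12, adjusted p = 8.56e-10), the last an inhibitor of the EGF receptor, fell. Of the 26 other immediate-early genes tested 8 fell, such as CEBPD (-2.88 ± 0.28, adjusted p = 1.90e-10), and 1 rose, the small GTPase gene GEM (1.43 ± 0.20, adjusted p = 2.45e-07). The phosphatase PTPN11, which carries receptor signals to RAS, rose (1.12 ± 0.11, adjusted p = 8.99e-11), HRAS fell (-1.15 ± 0.13, adjusted p = 1.87e-09), and the receptor FGFR3 fell (-1.70 ± 0.14, adjusted p = 1.75e-12).

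Some members gave little. EGR2, EGR3, NR4A3, IER3 and SPRY4 were too low to be tested in C4-2, with at most 0.655 CPM in any of its 8 libraries (EGR3 with R1881 alone), and FOSL1, EGR2, DUSP6 and SPRY4 were not tested in the libraries labelled LNCaP. ETV4 was between 0.361 and 0.869 CPM in the 12 libraries, and NR4A2 between 0.161 and 0.806 CPM in C4-2. Members under 1 CPM in both groups of a comparison with R1881 alone were tested 18 times, with standard errors from 0.48 to 1.34, and 3 of these tests passed (FOSL1 with TCE-5002 and DUSP6 with both in C4-2, EGR3 in the libraries labelled LNCaP). Counting did not use strand, so reads of FOSB and ERCC1, JUNB and HOOK2, CCND1 and LTO1, and ETV4 and DHX8, which overlap on opposite strands, cannot be told apart within the shared stretch.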

How the data were processed

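RNA sequencing was performed on 12 libraries, 2 for each of 6 groups. Per the file headers and the labels, the authors trimmed reads (Trim Galore, cutadapt, FastQC), aligned them to GRCh38 with STAR and counted read pairs per gene with featureCounts 1.5.0-p1 on an Ensembl annotation, without a strand option; the deposited values are raw counts of read pairs per gene. Symbols, biotypes and transcript GC content were taken from a reference annotation for 56558, 57055 and 56996 of the 60675 genes. Groups came from the titles.

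Genes were filtered by expression in each fit (edgeR 4.0.16, R 4.3.3), scaled by TMM and tested by the robust quasi-likelihood test, in 3 fits: the 8 C4-2 libraries, the 4 labelled LNCaP, and the 8 with R1881 alone or with both. The threshold was an adjusted p of 0.05 (Benjamini-Hochberg) and 2-fold. Alternatives were RLE scaling, no filter, DESeq2 1.42.0, a likelihood ratio test, adjusted p alone, a replicate block, 1 fit of all 12 libraries, a GC correction (with and without the block) and leaving out each library. In simulated tables in which 200 genes had a log2 change of size 2, the share found ran from 73.5% (difference between labels) to 96.5% (labelled LNCaP), with at most 5 false calls. The simulated counts held no GC-related difference between libraries, so they cannot show how many false calls such differences give. Intervals on counts are 95% exact binomial intervals.

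Members and lists were chosen with earlier results of these data known. All members are accounted for, and a member is given library by library if it passed in any comparison named. Of the other lists, up to 3 genes higher and 3 lower per list and comparison, at 5 CPM or more in the higher group, could be named. Promoters were read from RefSeq GRCh38.p14.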

Additional observations from a re-analysis of the deposited data

Results flagged for a closer look

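For 19 members the effect of both inhibitors differed between C4-2 and the libraries labelled LNCaP by the test of the difference itself (edgeR, over the 8 libraries with R1881 alone or with both). All values are log2 differences of the effects, C4-2 minus LNCaP. AP-1 subunits were more positive in C4-2, by 5.73 for FOSL1, 3.46 for JUNB, 2.26 for JUND and 1.29 for FOSL2, that of FOSL1 resting on the low counts given above. So were the stress and RNA decay genes GADD45B (4.60), IER5 (3.19) and ZFP36 (1.70). Phosphatases were more positive by 3.95 (DUSP2), 3.82 (DUSP5), 1.42 (DUSP8) and 1.14 (DUSP1). NR4A2 differed by 2.27, KLF2 by 1.66, KLF10 by 1.44, ETV5 by 2.14 and PHLDA1 by 1.34. More negative in C4-2 were SPRED1 (-1.66), SPRED2 (-1.28) and KLF6 (-1.17). Without the library whose header names namoline alone 20 members passed, with IER3 and NR4A1 added and PHLDA1 lost (0.79, adjusted p = 0.2); of the other 18, FOSL1 moved most, to 5.43. Of the 19, 15 kept their call in every alternative, and DUSP8, KLF2, KLF6 and PHLDA1 lost it in at least 1. After the GC correction DUSP8 was at 0.98 and KLF2 had an adjusted p = 0.067. What lies behind the differences was not tested.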

How the results depend on the processing

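Of the calls against R1881 alone, 10 of 11 with both inhibitors in C4-2 held in every alternative, 3 of 11 with TCE-5002, 1 of 4 with namoline and 12 of 18 in the libraries labelled LNCaP. Using the adjusted p alone, without the 2-fold line, raised the members counted to 11 with namoline, 17 with TCE-5002, 21 with both, 22 with both against namoline and 30 in the libraries labelled LNCaP, and all genes counted to 6218, 6514, 8955, 9921 and 9788 (both against TCE-5002), 9489 (interaction), 9893 (labelled LNCaP), 9431 (difference between labels) and 15188 (labels with R1881 alone). With the GC correction the members counted with TCE-5002 fell from 11 to 5, and with the GC correction and replicate block to 6. All genes counted went from 2107 to 2120 and 2089 in the same settings. Leaving out 1 library at a time gave 2 to 5 members with namoline and 6 to 9 with TCE-5002. Among values with an adjusted p under 0.05, the signs that reversed belonged to ones under 2-fold: IER2 in the interaction (0.12 with the GC correction and 0.12 with the block added), JUND in the libraries labelled LNCaP (0.075 both times) and CCND1 there (0.00028 with the GC correction and block). Members with a higher adjusted p also turned in sign when 1 library was left out, in C4-2 4 of 34 (namoline), 6 (TCE-5002) and 5 (both), and 4 of 35 in the libraries labelled LNCaP. The cause was not tested.

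Replicate numbers 1 and 2 are shared by all groups but no label ties them to a batch. Deviations of same-numbered libraries correlated from -0.017 to 0.325 among the C4-2 groups, and at 0.0748 for the pair labelled LNCaP. With the replicate block 4, 10 and 11 members passed for namoline, TCE-5002 and both in C4-2, and 17 for the other label, within 1.5 times of the unblocked counts. With 2 libraries a group, tests of members under 1 CPM in both groups had a median standard error of 0.61.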
